A study of Mus musculus with 8 samples.

Results

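The cadherin genes named Cdh with a number and the protocadherin genes named Pcdh were taken as a family and their position relative to the nuclear lamina was read in each of 4 lists of lamina-associated domains (LADs). The members were chosen by symbol among the protein-coding genes of the mouse mm9 annotation (GENCODE vM1), which gave 59 of 22367 genes. Of these, 35 are single genes spread over the genome (23 Cdh and 12 Pcdh genes) and are called unclustered here. The other 24 are records of the Pcdha, Pcdhb and Pcdhg arrays, which lie side by side at 1 locus and share exons or long blocks of chromatin. The clustered records are therefore counted apart and are not independent of each other.

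Lamina contacts were mapped by LaminB1-DamID in 3T3-L1 cells, an established mouse fibroblast line that becomes adipocytes in culture. In DamID a bacterial adenine methylase (Dam) fused to LaminB1 methylates GATC sites close to the nuclear envelope, and free Dam records general accessibility. Both constructs were delivered by lentivirus. The 4 conditions were untreated preadipocytes at day 0, adipocytes at day 9 that carried a control shRNA without a target, day 9 adipocytes with an shRNA against Tmem120a, and day 9 adipocytes with shRNAs against both Tmem120a and its paralog Tmem120b, which encode transmembrane proteins of the nuclear envelope. The last pair is called the single (Tmem120a) knockdown and the double knockdown here. Differentiation was induced in the 3 day 9 conditions with insulin, dexamethasone, IBMX and rosiglitazone. The knockdowns were made in stable shRNA lines, and their extent cannot be read from the lists. Each condition was measured with 1 LaminB1-Dam and 1 Dam library. No value below therefore has a spread between replicates, no difference between lists could be tested, and the read depth behind the lists is unknown. The lists hold positions of LADs and no expression values, so the identity of the cells was not checked against adipocyte markers.

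Cadherins are calcium-dependent adhesion proteins of the cell surface. Classical cadherins of type I and type II bind the same or a related cadherin on the neighbouring cell and couple it to actin through catenins, and which of them a cell expresses helps to sort tissues. Protocadherins carry more extracellular cadherin repeats, do not bind beta-catenin in the classical way and are best known from the developing nervous system. Cdh2 (N-cadherin) and Cdh11 (OB-cadherin) are typical of mesenchymal cells, to which fibroblasts and preadipocytes belong. LADs are mostly gene-poor and AT-rich chromatin at the nuclear periphery.

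The share of unclustered cadherin and protocadherin genes in LADs was above that of all protein-coding genes in each of the 4 lists. In preadipocytes, 19 of 35 unclustered members (54.3%) had a gene body that met a LAD by at least 1 bp, where 26.2% of all protein-coding genes did. In adipocytes the count was 20 (57.1%) against 23.3% of all genes. It was 19 (54.3%) against 27.5% in the single knockdown and 21 (60%) against 29.5% in the double knockdown. The members are long, with a median body of 106 kb where the median of all genes was 15.4 kb, and a long body meets a LAD more easily. The gene start, a single position, lay in a LAD for 15, 18, 15 and 13 of the 35 members in preadipocytes, adipocytes, single and double knockdown, or 42.9%, 51.4%, 42.9% and 37.1%. The same shares of all genes were 23.3%, 21.2%, 22.6% and 23.8%.

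Long and short members were also looked at apart. Of the 18 unclustered members of at least 100 kb, 10 started in a LAD in preadipocytes, 12 in adipocytes, 11 in the single knockdown and 7 in the double knockdown. Among all 2401 protein-coding genes of at least 100 kb the shares were 30.2%, 26.9%, 27.6% and 27.3%. Of the 17 shorter members, 5, 6, 4 and 6 started in a LAD in the same order of lists (29.4%, 35.3%, 23.5% and 35.3%), where 22.5%, 20.5%, 21.9% and 23.4% of all genes under 100 kb did. In preadipocytes and the single knockdown the short members were thus near the background, and the counts of all 4 lists lay between 4 and 6. The 6 in the double knockdown included Cdh5 and Pcdh8, in LADs of only 29.8 and 56.4 kb, respectively. By the gene start, the adipocyte list held the most long members and the double knockdown list the fewest. Over all 35 unclustered members the same lists were highest and lowest by gene start (18 and 13). That order rests on the choice of start, since the start of any annotated transcript gave 16, 18, 18 and 18 of the 35. Counts by any transcript start are not given here for the long members apart or for all genes. The count of Cdh genes with a gene start in a LAD was 10 of 23 in each of the 4 lists. Of these, 9 were the same genes throughout. The tenth was Cdh5 in the double knockdown, in a LAD of 29.8 kb, and Cdh18 in the other lists. That of Pcdh genes was 5, 8, 5 and 3 of 12. These counts also rest on the choice of start. Cdh2, Cdh13 and Cdh23 had another transcript start in a LAD in both knockdowns, and so had Pcdh11x and Pcdh15 in the double knockdown.

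**Figure D1:**
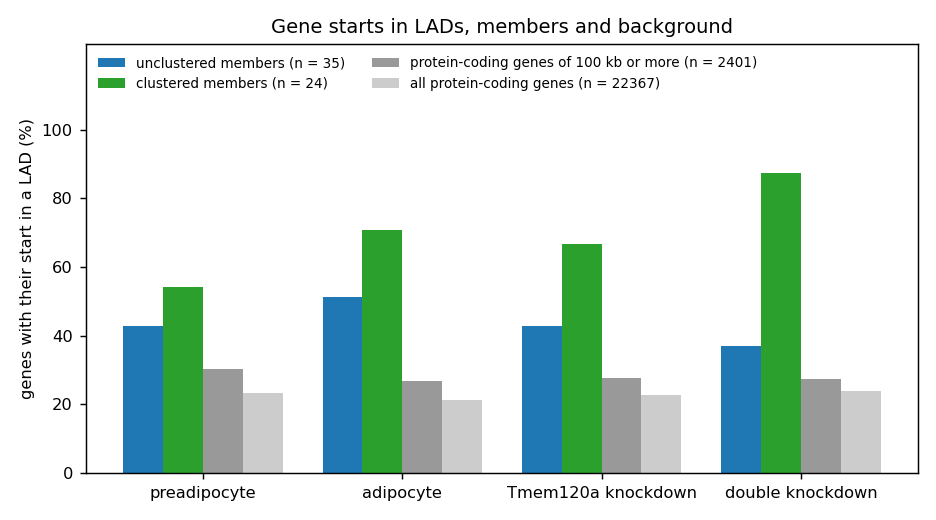
Share of genes whose start lies in a LAD (%, vertical axis) in each of the 4 lists, for the 35 unclustered members, the 24 clustered members, protein-coding genes of at least 100 kb and all protein-coding genes. Bars are counts over 1 list each and have no error. The unclustered members stand above both backgrounds in every list and are highest in adipocytes by this measure (51.4%, or 18 genes, a count that both knockdown lists reach when any transcript start is taken), and the clustered records are highest in the double knockdown as deposited (87.5%), where preadipocytes and the double knockdown tie at 23 records once gaps under 50 kb are closed.

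The share of the gene body inside LADs was also highest in adipocytes over the 35 members, but the other lists stood in another order than by gene start. Its median over the unclustered members was 13.3% in preadipocytes, 86.5% in adipocytes, 14% in the single knockdown and 30.2% in the double knockdown, where the median of all protein-coding genes was 0 in each list. These medians fall between a group of genes near 0 and a group near 100, so they are set by the few genes in between. With LADs under 100 kb left out the median was 0 in preadipocytes and in both knockdowns. The bodies of the unclustered members summed to 9.17 Mb, of which 55.2%, 72.9%, 60% and 57.8% lay in LADs in the 4 lists in the order above. Without Cdh18, a brain cadherin of 925 kb described below, the shares were 59.9%, 69.9%, 62.1% and 60.9%. Without both Cdh18 and the similarly long Pcdh9 they were 60.6%, 67.1%, 64.9% and 67.8%, so that adipocytes no longer stood above the double knockdown. For all genes these summed shares were 29.6%, 28.9%, 30.1% and 31.1%. The higher value over all 35 members in adipocytes came with a nearly equal LAD content of the genome, since the lists covered between 43.7% and 45.1% of mm9. They were cut into very different numbers of LADs, 3914 in preadipocytes, 2542 in adipocytes, 5723 in the single knockdown and 6971 in the double knockdown. The part of this difference in fragmentation in the results below was not tested.

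Members split into a group that met a LAD in each list and a group that met none. The body met a LAD in all of the 4 lists for 17 unclustered members (48.6%), in some lists for 6 (17.1%) and in none for 12 (34.3%). For all protein-coding genes the shares were 19.3%, 16.9% and 63.7%. The 17 members were Cdh4, Cdh6, Cdh7, Cdh8, Cdh9, Cdh10, Cdh12, Cdh13, Cdh18, Cdh19, Cdh20, Pcdh7, Pcdh9, Pcdh10, Pcdh11x, Pcdh15 and Pcdh20. The 6 were Cdh2, Cdh5, Cdh11, Cdh23, Pcdh8 and Pcdh17. The 12 were Cdh1, Cdh3, Cdh15, Cdh16, Cdh17, Cdh22, Cdh24, Cdh26, Pcdh1, Pcdh12, Pcdh18 and Pcdh19.

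**Figure D2:**
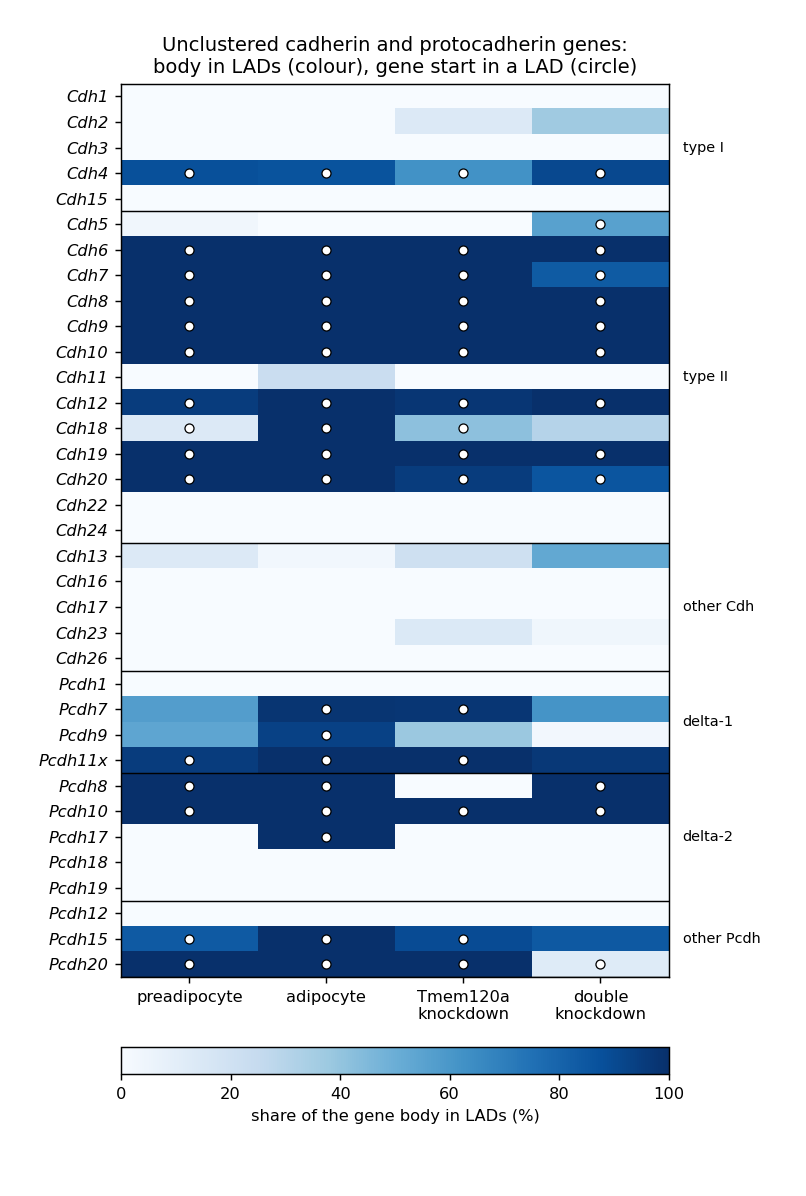
Share of the gene body in LADs (%, colour) for each of the 35 unclustered members (rows, by subgroup) in the 4 lists (columns), with a circle where the gene start lies in a LAD. Most type II cadherins are dark in all columns, Pcdh17 is dark in the adipocyte column alone (100%), and Cdh5 gains colour in the double knockdown (55.7%).

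Type I classical cadherins, which include the best known epithelial and mesenchymal cadherins, were mostly outside LADs. Cdh1 (E-cadherin, of epithelia), Cdh3 (P-cadherin) and Cdh15 (M-cadherin, of muscle) had 0% of the body in LADs in each list, and their starts were at least 185 kb from the nearest LAD. Cdh4 (R-cadherin, chr2:179177136-179634078) was the exception. Its body lay in LADs for 87.5% in preadipocytes, 86.5% in adipocytes, 62.2% in the single knockdown and 90.5% in the double knockdown, and its start was in a LAD in all 4 lists. The 3 lists other than the single knockdown were close to each other, but with LADs under 100 kb left out Cdh4 was at 45.8% in the single and 71.4% in the double knockdown. Cdh2 (chr18:16747386-16967755) had 0% in preadipocytes and adipocytes, 13.3% in the single knockdown and 37% in the double knockdown, while its gene start stayed outside LADs in each list. Both knockdown values of Cdh2 came from LADs under 100 kb, since they were 0 when shorter LADs were left out. The 500 kb on each side of Cdh2 were in LADs for 91.2% to 95.9%, so Cdh2 lay in a gap between LADs in preadipocytes and adipocytes.

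Type II cadherins, most of which are known from the nervous system, were the Cdh genes most often in LADs. Their 13 bodies summed to 3.01 Mb, and 61.7%, 90.3%, 70.4% and 66.5% of this lay in LADs in the 4 lists. The differences rest on Cdh18, without which the shares were 83.2%, 86%, 83.2% and 82.6%. The bodies of 10, 10, 9 and 10 type II genes met a LAD, and 9 starts lay inside in each list. Cdh6 (K-cadherin, of kidney and neural crest), Cdh8, Cdh9, Cdh10 and Cdh19 were entirely inside LADs in each list. Cdh7 was so in 3 lists and at 83.4% in the double knockdown. Cdh20 was at 100% in preadipocytes and adipocytes, 95.3% in the single knockdown and 85.9% in the double knockdown, and Cdh12 at 95.1%, 100%, 97.5% and 100%. Cdh22 and Cdh24 had no base in a LAD in any of the lists. Of the 9 type II genes that met a LAD in each list, 8 also had the start inside in each list, and the ninth was Cdh18.

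Cdh18, a cadherin of brain (chr15:22478777-23404173, 925 kb), had the widest range among the type II genes that met a LAD in each list. The gene body lay in LADs for 13.3% in preadipocytes, 100% in adipocytes, 41.5% in the single knockdown and 30.2% in the double knockdown. In adipocytes 1 LAD of 8083 kb ran across the whole gene. The other lists held 4, 9 and 3 pieces. The start was in a LAD in the first 3 lists and outside in the double knockdown, 49.1 kb from the nearest border, but in preadipocytes and in the single knockdown that LAD ended 8.19 kb and 12.1 kb into the gene. Most of these pieces were short, and with LADs under 100 kb left out Cdh18 was at 0% in preadipocytes and the single knockdown and at 21.1% in the double knockdown. Of its 5 annotated transcript starts, 1 lay in a LAD in preadipocytes, 5 in adipocytes, 1 in the single knockdown and 0 in the double knockdown.

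Cdh5 and Cdh11, the type II genes of blood vessels and of mesenchyme, met LADs in 1 or 2 lists. Cdh5 (VE-cadherin, chr8:106625525-106668402) had 3.4% of its body in LADs in preadipocytes, 0% in adipocytes and in the single knockdown, and 55.7% in the double knockdown, where its start was also inside. The LAD at its start in the double knockdown was 29.8 kb long, so a minimum of 100 kb removed it. Cdh11 (chr8:105156895-105309011) was covered by a LAD for 23% of its body in adipocytes and 0% in the other 3 lists, with the start outside in each. That LAD covered the 3′ end of Cdh11 and ended 117 kb downstream of its start.

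Of the other numbered cadherins, Cdh16 (of kidney), Cdh17 (of liver and intestine) and Cdh26 were at 0% in each list. Cdh13 (T-cadherin, chr8:120807633-121848821), which has no cytoplasmic part, is held by a lipid anchor and binds adiponectin, had 13.6% of its 1041 kb in LADs in preadipocytes, 2.74% in adipocytes, 20.7% in the single knockdown and 52.7% in the double knockdown. It was lowest in adipocytes and highest in the double knockdown, where 8 separate LADs met the body. The value of Cdh13 in the double knockdown was 25.3% without LADs under 100 kb and 75.2% with gaps under 50 kb closed. Every LAD that met Cdh13 in preadipocytes or adipocytes was under 100 kb (at most 98.3 and 28.6 kb, respectively). The lowest value in adipocytes therefore rests on short LADs. The start of Cdh13 was outside LADs in each list, between 28.8 and 71.9 kb away. Cdh23 (chr10:59765496-60159238), a part of the tip link of inner ear hair cells, was at 0% in preadipocytes and adipocytes, 14% in the single knockdown and 3.87% in the double knockdown, from LADs under 100 kb in both.

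Delta-1 protocadherins were almost wholly in LADs in adipocytes, apart from 1 gene. Of their summed 1.93 Mb, 67.1% lay in LADs in preadipocytes, 95% in adipocytes, 70.1% in the single knockdown and 45.3% in the double knockdown. The sums rest largely on Pcdh9, without which they were 78.1%, 96.6%, 96.6% and 80.5%, equal in adipocytes and the single knockdown. Pcdh9 (chr14:93414731-94287951, 873 kb), a protocadherin of neurons, had 53.8%, 93.1%, 38% and 2.63% of its body in LADs in that order, so the double knockdown list held almost none of the gene. Without LADs under 100 kb Pcdh9 was at 14.1% in the single knockdown and 0% in the double knockdown. Its start was in a LAD in adipocytes alone, by 2.19 kb. Pcdh7 (chr5:58109260-58520590, 411 kb) had 57.2%, 97.7%, 97.6% and 61.6%. The adipocyte and the single knockdown lists were nearly equal for Pcdh7 and held its start, while in preadipocytes and the double knockdown the start was outside by 10.2 and 20.4 kb. Pcdh11x (chrX:117403868-118024228), an X-linked gene of brain, stayed at 95.3%, 100%, 100% and 96.5%, but its start was 16.5 kb outside LADs in the double knockdown. Pcdh1, also known from airway epithelium, was at 0% in each list.

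**Figure D3:**
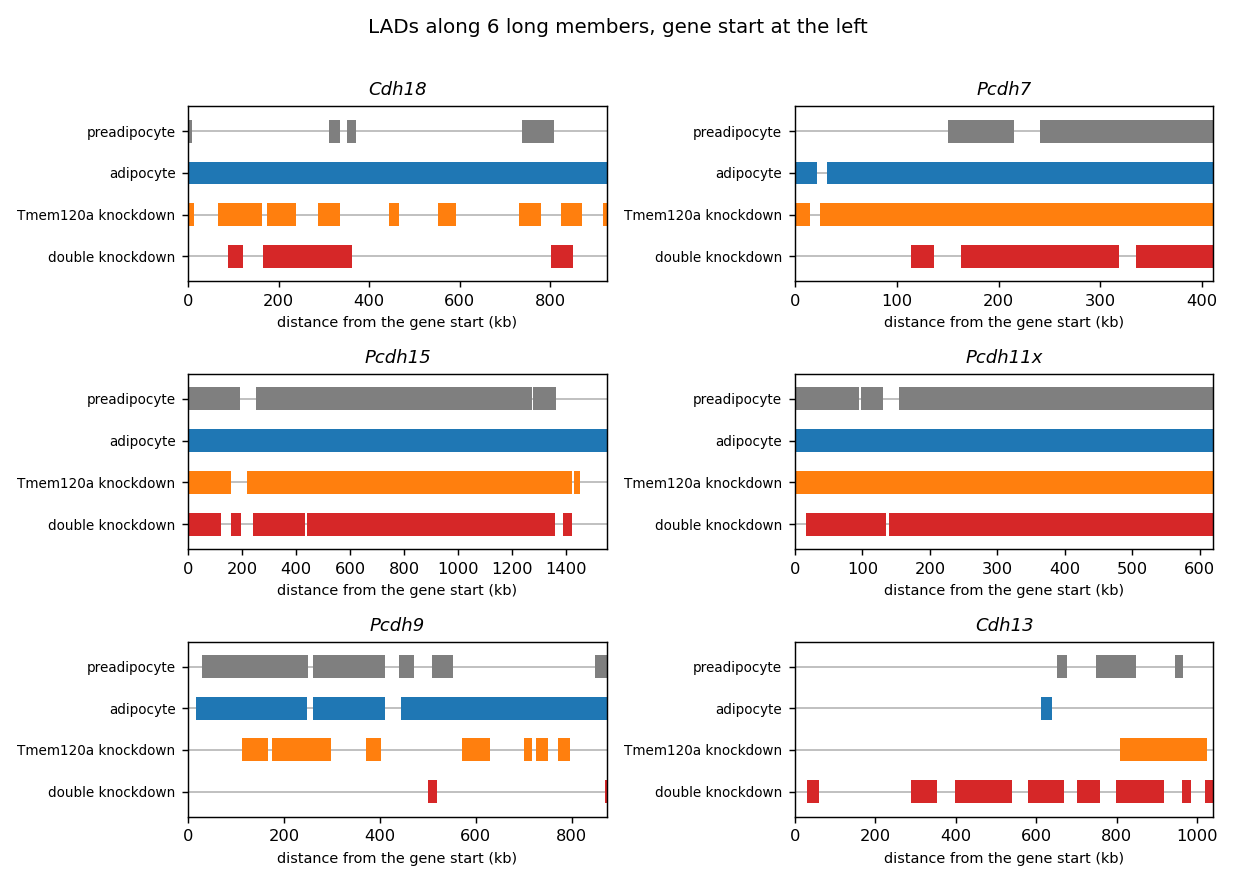
LADs along 6 long members, with the distance from the gene start in kb on the horizontal axis and 1 row per list. Coloured bars are LADs and thin lines the part of the gene outside LADs. Cdh18 is a single block in adipocytes and 4, 9 and 3 pieces in the other lists, Pcdh9 is nearly empty in the double knockdown (2.63%) and Cdh13 is fullest there (52.7%). The LAD at the start of Pcdh9 in adipocytes is 2.19 kb long inside the gene and hardly visible at this scale.

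Of the delta-2 protocadherins, 1 gene was in a LAD in the adipocyte list alone and 1 was out of LADs in the single knockdown list alone. Pcdh17 (chr14:84843370-84936867), a protocadherin of developing brain circuits, had 0% of its body in LADs in preadipocytes, 100% in adipocytes, 0% in the single knockdown and 0% in the double knockdown. In adipocytes it was inside a LAD of 3754 kb, and its start was 1512 kb from the nearest border. In the other 3 lists the start was 14.7, 17.3 and 46 kb outside, and the 500 kb on each side of the gene were still in LADs for 84.2%, 92.6% and 65.7%. Pcdh17 was thus a gap of the LAD map in these lists. Pcdh8 (chr14:80166587-80171119), a short gene of 4.53 kb, was at 100% in preadipocytes, adipocytes and the double knockdown and at 0% in the single knockdown, where its start was 17.3 kb outside. In the double knockdown the Pcdh8 start was 0.727 kb from a border, and the LAD there was 56.4 kb long, so that a minimum of 100 kb removed it. Pcdh10, of brain, was at 100% in each list, and Pcdh18 and the X-linked Pcdh19 were at 0%.

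Among the remaining unclustered protocadherins, Pcdh12 (of endothelium) was at 0% in each list. Pcdh15 (chr10:72562090-74112482, 1550.4 kb), the partner of Cdh23 in the tip link, had 83.8% of its body in LADs in preadipocytes, 100% in adipocytes, 89.2% in the single knockdown and 84.1% in the double knockdown. Its start was inside by 7.5, 412 and 6.98 kb in the first 3 lists and outside by 3.07 kb in the double knockdown. Of 12 transcript starts of Pcdh15, 9, 12, 9 and 6 lay in LADs. Pcdh20 (chr14:88864554-88871203) was at 100% in the first 3 lists and at 12.2% in the double knockdown, where a border lay 0.811 kb inside the start. When gaps under 50 kb were closed Pcdh20 was at 100% in the double knockdown too.

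The starts of 6 of the 8 unclustered members whose LAD state at the start differed between lists are shown as sequence. Each run holds the 250 bases before the annotated gene start in mm9 (NCBIM37), read 5′ to 3′ on the strand of the gene, with GATC in capitals. GATC is the sequence that Dam methylates and reads the same on both strands. Of all 22367 protein-coding genes, 40.2% had a GATC in this window, and of the 35 unclustered members 45.7%. Of the 8 starts, 4 had an observed over expected CpG above the median of all genes (0.496) and 4 below it, and the 6 shown ranged from 0 in Cdh18 to 0.857 in Pcdh15. The windows are chr14:84843120-84843369 (+) for Pcdh17, chr14:94287952-94288201 (-) for Pcdh9, chr5:58109010-58109259 (+) for Pcdh7, chr14:80171120-80171369 (-) for Pcdh8, chr15:22478527-22478776 (+) for Cdh18 and chr10:72561840-72562089 (+) for Pcdh15.
Pcdh17: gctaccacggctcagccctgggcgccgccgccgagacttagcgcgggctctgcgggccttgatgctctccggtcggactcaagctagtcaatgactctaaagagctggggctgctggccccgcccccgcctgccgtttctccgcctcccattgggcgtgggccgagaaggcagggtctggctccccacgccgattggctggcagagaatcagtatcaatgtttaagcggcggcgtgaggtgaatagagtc
Pcdh9: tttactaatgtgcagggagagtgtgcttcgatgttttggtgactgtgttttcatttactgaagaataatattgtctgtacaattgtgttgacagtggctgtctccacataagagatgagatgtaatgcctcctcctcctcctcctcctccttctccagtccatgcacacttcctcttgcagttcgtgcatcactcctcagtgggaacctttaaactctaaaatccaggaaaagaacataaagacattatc
Pcdh7: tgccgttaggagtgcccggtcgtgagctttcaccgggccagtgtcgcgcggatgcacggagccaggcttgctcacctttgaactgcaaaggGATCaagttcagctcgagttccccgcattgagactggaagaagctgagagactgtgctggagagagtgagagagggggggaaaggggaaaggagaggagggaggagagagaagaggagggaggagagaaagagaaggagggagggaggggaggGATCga
Pcdh8: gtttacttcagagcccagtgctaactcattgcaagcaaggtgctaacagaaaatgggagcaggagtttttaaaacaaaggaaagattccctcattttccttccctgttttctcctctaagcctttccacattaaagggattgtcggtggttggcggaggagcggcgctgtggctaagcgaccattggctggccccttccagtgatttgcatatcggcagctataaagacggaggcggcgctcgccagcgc
Cdh18: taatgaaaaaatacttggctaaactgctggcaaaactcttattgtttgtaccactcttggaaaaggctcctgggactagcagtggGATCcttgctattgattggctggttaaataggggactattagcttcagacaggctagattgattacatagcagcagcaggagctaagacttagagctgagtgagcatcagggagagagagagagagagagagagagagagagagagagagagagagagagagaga
Pcdh15: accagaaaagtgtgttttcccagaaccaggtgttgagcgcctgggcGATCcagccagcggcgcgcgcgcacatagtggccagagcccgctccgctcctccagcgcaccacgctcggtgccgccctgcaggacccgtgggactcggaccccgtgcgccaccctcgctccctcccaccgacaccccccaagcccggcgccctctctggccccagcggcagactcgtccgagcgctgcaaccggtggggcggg

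The borders inside these genes are shown next, since they are the points at which the lists differ. Inside the bodies of the unclustered members other than Cdh2, Pcdh1 and Pcdh12, the 4 lists had 153 LAD borders, and all 153 lay at a GATC site, as did 97.3% to 99.1% of the borders of the whole lists. This follows from the segmentation, which was done on fragments between GATC sites. Of these, 149 were in introns. They fell at 152 distinct positions, and 1 position was used by more than 1 list. The windows below have 60 bases of the plus strand of mm9 with the GATC of the border in capitals. They are the LAD end in Cdh18 in preadipocytes (chr15:22486932-22486991) and in the single knockdown (chr15:22490839-22490898), the LAD end in Pcdh7 in adipocytes (chr5:58130946-58131005) and in the single knockdown (chr5:58124245-58124304), the LAD start in Pcdh15 in the double knockdown (chr10:72565126-72565185) and the border inside Pcdh9 that is nearest to its start in preadipocytes (chr14:94258615-94258674). All 6 are intronic.
Cdh18, preadipocytes, 8.19 kb from the gene start: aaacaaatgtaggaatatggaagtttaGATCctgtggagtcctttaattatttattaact
Cdh18, single knockdown, 12.1 kb from the gene start: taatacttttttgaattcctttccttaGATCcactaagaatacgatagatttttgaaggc
Pcdh7, adipocytes, 21.7 kb from the gene start: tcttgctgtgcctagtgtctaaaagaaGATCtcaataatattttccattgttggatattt
Pcdh7, single knockdown, 15 kb from the gene start: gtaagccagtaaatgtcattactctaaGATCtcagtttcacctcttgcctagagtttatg
Pcdh15, double knockdown, 3.07 kb from the gene start: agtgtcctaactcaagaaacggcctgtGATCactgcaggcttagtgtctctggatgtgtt
Pcdh9, preadipocytes, 29.3 kb from the gene start: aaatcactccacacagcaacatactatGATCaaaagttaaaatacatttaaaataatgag

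The differences between pairs of lists ran mostly in one direction for the unclustered members. Between preadipocytes and adipocytes, the share of the body in LADs was at least 25 percentage points higher in adipocytes for 4 members (11.4%), namely Cdh18, Pcdh7, Pcdh9 and Pcdh17, against 2.47% of all genes. It was at least 25 points higher in preadipocytes for 0 members, against 4.6% of all genes. Between adipocytes and the single knockdown it was higher in adipocytes for 4 (Cdh18, Pcdh8, Pcdh9 and Pcdh17), against 2.71% of all genes, and higher in the knockdown for 0, against 5.16%. Between adipocytes and the double knockdown it was higher in adipocytes for 5 (Cdh18, Pcdh7, Pcdh9, Pcdh17 and Pcdh20), against 3.09%, and higher in the knockdown for 3 (Cdh2, Cdh5 and Cdh13), against 7.16%. With LADs under 100 kb left out, the differences of Cdh2 and Cdh5 were 0 and Cdh13 alone stayed higher in the double knockdown by at least 25 points. The same setting added Cdh4 to the members higher in adipocytes than in the single knockdown (5 members). It added Pcdh8 to those higher in adipocytes than in the double knockdown (6 members). The 3 comparisons share the adipocyte list, and a feature of that list alone would enter each of them. Pcdh7, Pcdh20 and Cdh5 differed from adipocytes by at least 25 points in the double knockdown and by under 1 point in the single knockdown. The double knockdown difference of Pcdh20 was lost with gaps under 50 kb closed, and that of Cdh5 without LADs under 100 kb. Only that of Pcdh7 stayed at 25 points or more under both settings.

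The deposited lists of regions that left or joined LADs between preadipocytes and adipocytes rest on the same pair of lists and are no separate evidence. Regions in LADs of preadipocytes and not of adipocytes met 2 unclustered members (5.71%), Cdh5 and Cdh13, where 5.76% of all genes were met. This count was 0 by gene start, against 3.51% of all genes, and 4 with all pieces of the subtraction of the lists. Regions in LADs of adipocytes and not of preadipocytes met 8 (22.9%), where 3.08% of all genes were met. The 8 were Cdh11, Cdh12, Cdh18, Pcdh7, Pcdh9, Pcdh11x, Pcdh15 and Pcdh17, and 3 of them had the gene start in such a region (8.57% of the 35, against 1.49% of all genes). Of the 8, 7 were among the 18 members of at least 100 kb (38.9%), where 12.3% of all genes of that length were met, and 1 was among the 17 shorter members (5.88%), where 1.97% of all shorter genes were met.

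Several unclustered members are neighbours and sit in the same LADs, so they do not count as separate observations. From Cdh9 to Cdh18 on chromosome 15 lie 6.7 Mb with 5 protein-coding genes, of which 4 are members. This stretch was in LADs for 83% in preadipocytes, 99.9% in adipocytes, 88% in the single knockdown and 85.6% in the double knockdown, in 9, 2, 16 and 13 LADs. Cdh10, Cdh12 and Cdh18 shared 1 LAD of 8.08 Mb in adipocytes, and Cdh9, Cdh10 and Cdh12 shared 1 of 8.16 Mb in preadipocytes. From Pcdh8 to Pcdh9 on chromosome 14 lie 14.1 Mb with 10 protein-coding genes, which include Pcdh17 and Pcdh20. This stretch was in LADs for 85.8%, 96.3%, 86.9% and 74.2%, in 27, 10, 32 and 61 LADs, so it was broken into the most LADs in the double knockdown.

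Cdh8 and Cdh1 mark the ends of a stretch of another kind on chromosome 8. It spans 7.65 Mb with 97 protein-coding genes and was in LADs for 51.8%, 51.4%, 50.1% and 50.9%, in 6, 6, 7 and 6 LADs. Cdh8 at one end was wholly inside LADs in each list, and Cdh3 and Cdh1 at the other end wholly outside.

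Members were also described by features that the choice by symbol did not use. Length and the surrounding LADs are in part fixed by the grouping, since a long body meets a LAD more easily and a LAD over a gene often reaches past it. Members whose body met a LAD in all 4 lists had a median length of 392 kb, a median GC content of 36.6% and a median of 1 other protein-coding gene within 500 kb. Members that met none had medians of 36.1 kb, 48% and 18 genes, and the 6 with a mixed state lay between, with 123 kb, 43.8% and 6 genes. For all genes the medians were 15.4 kb, 45.6% and 16 genes. The ranges overlapped, since Pcdh18 had no neighbour within 500 kb and was outside LADs, whereas Cdh4 and Cdh13 had 16 neighbours and met LADs in each list. GATC sites were about as dense in the unclustered members (median 2.33 per kb) as in all genes (2.41). The 500 kb on either side of the members that always met a LAD were in LADs for a median of 97.3%, 100%, 96.6% and 93.1% in the 4 lists, and those of the members that met none for 1.91%, 0%, 3.43% and 0.766%.

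**Figure D4:**
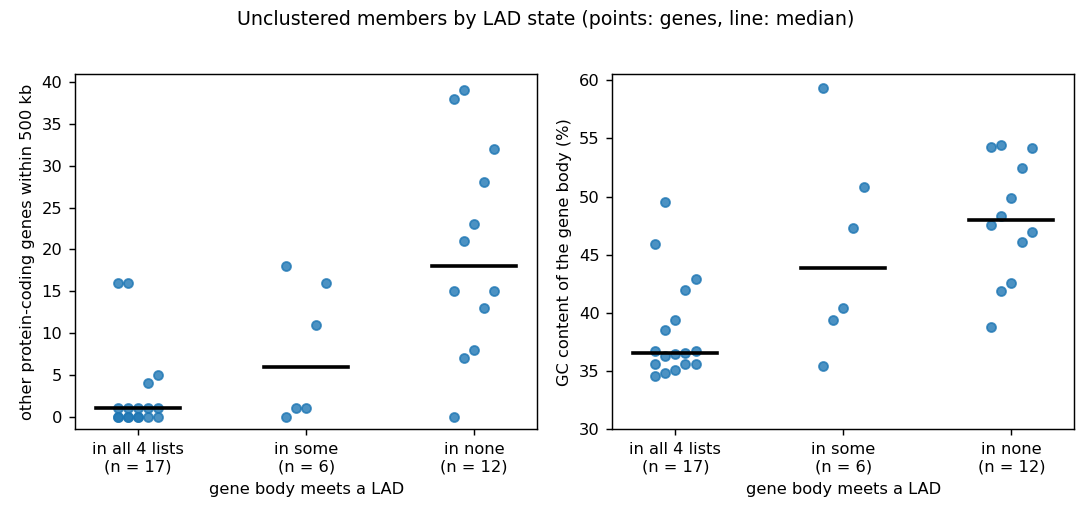
Number of other protein-coding genes within 500 kb (left) and GC content of the gene body in % (right) for the 35 unclustered members, grouped by whether the body meets a LAD in all 4 lists, in some or in none. Points are genes and lines are medians. The medians are 1, 6 and 18 genes and 36.6%, 43.8% and 48% GC, with overlap between the groups.

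The 11 unclustered members with a start in a LAD in each list (Cdh4, Cdh6, Cdh7, Cdh8, Cdh9, Cdh10, Cdh12, Cdh19, Cdh20, Pcdh10 and Pcdh20) mostly lay in large domains. The exceptions include Pcdh20, whose start was 0.811 kb from a border of a LAD of 222 kb in the double knockdown. The size of these domains is in part fixed by the choice of the 11, since a position inside LADs falls more easily in a long LAD. The same sizes are not given here for all genes. The LAD over the start of the 11 measured 5293 kb in the median in preadipocytes, 7364 kb in adipocytes with the control shRNA, and 4225 and 1045 kb in the single and double knockdowns, respectively. The starts were at a median of 476, 944, 482 and 326 kb from the nearest border. The starts that changed state between lists were those of Cdh5, Cdh18, Pcdh7, Pcdh8, Pcdh9, Pcdh11x, Pcdh15 and Pcdh17.

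The clustered protocadherins lie at chr18:37089939-38001527, 912 kb in which the Pcdha, Pcdhb and Pcdhg arrays follow each other. Neurons choose single variable exons of the alpha and gamma arrays, whereas each Pcdhb gene is a single exon, and the combination gives a neuron its surface identity. The annotation has 2 records for the alpha array, 21 for beta genes and 1 for the gamma array. Of the 24 records, 15, 17, 16 and 21 met a LAD in the 4 lists in the order above, and 13, 17, 16 and 21 had the start inside (54.2%, 70.8%, 66.7% and 87.5%). Of all protein-coding genes, 26.2%, 23.3%, 27.5% and 29.5% met a LAD and 23.3%, 21.2%, 22.6% and 23.8% had the start inside. The body met a LAD in each list for 11 records, in some for 12 and in none for 1, against 19.3%, 16.9% and 63.7% of all genes. Without the double knockdown list, 6 records met a LAD in some lists and 6 in none. The whole locus was in LADs for 61.5% in preadipocytes, 63.8% in adipocytes, 49% in the single knockdown and 58.6% in the double knockdown.

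The 3 arrays differed from each other. The alpha record of 257 kb was in LADs for 82.7% and 86.2% in preadipocytes and adipocytes and for 42% and 51.8% in the single and double knockdowns, respectively. Of its 10 annotated transcript starts 9, 10, 4 and 5 were inside. In each knockdown 1 of the 2 LADs that met the alpha record was under 100 kb (41.5 and 70.9 kb, respectively). The other LAD covered 66.6 kb of it in the single and 62.5 kb in the double knockdown, so the order of the knockdowns rests on short LADs. The beta stretch of 256 kb had 67.3%, 76.5%, 78.3% and 88.4%, so it differed little between adipocytes and the single knockdown and was highest in the double knockdown. The gamma record of 168 kb had no base in a LAD in any of the 4 lists, and 0 of its 10 transcript starts. A border of contact therefore lay between the beta and the gamma array in each list.

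**Figure D5:**
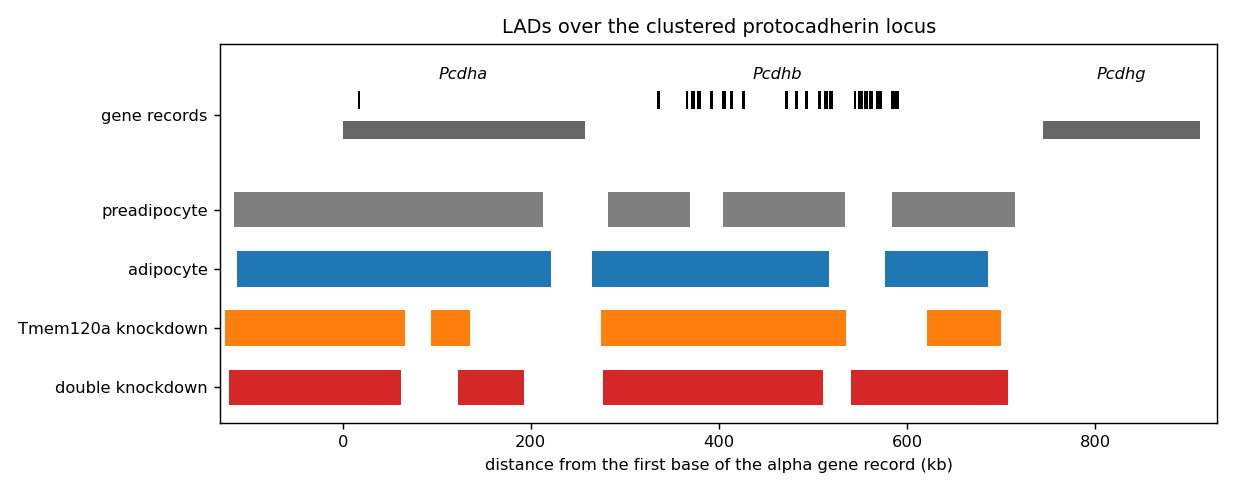
LADs (coloured bars) over the clustered protocadherin locus in the 4 lists, with the distance from the first base of the alpha record in kb on the horizontal axis and gene records in black and grey at the top. LADs cover most of the alpha array in preadipocytes and adipocytes (82.7% and 86.2%) and less of it in the knockdowns (42% and 51.8%), cover a varying part of the beta array, and stop before the gamma array in each list.

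Along the beta array the state changed at 2 gaps between LADs. The first gap, present in preadipocytes alone, left the starts of Pcdhb3, Pcdhb4, Pcdhb5 and Pcdhb6 outside, by 0.858, 7.51, 13.8 and 0.153 kb. The gap further along left Pcdhb15 to Pcdhb19 outside in preadipocytes, adipocytes and the single knockdown, and these 5 genes were inside in the double knockdown. Pcdhb14 at the edge of that gap was inside in preadipocytes and in the single knockdown and outside in the other lists. Its start was outside by 0.686 kb in adipocytes and 6.79 kb in the double knockdown. Pcdhb13 was outside in the double knockdown alone, its start by 1.65 kb. In the single knockdown this gap reached past the last beta gene, so that Pcdhb22 was outside there alone. The start of Pcdhb21 was outside there by 38.3 kb and in preadipocytes by 0.757 kb. Of the 21 beta genes, 13, 15, 14 and 19 met a LAD in the 4 lists. The count in preadipocytes rests on these gaps, since closing gaps under 50 kb raised the number of clustered records in LADs from 15 to 23 there and from 21 to 23 in the double knockdown.

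Partners of the cadherins were looked up as a fixed list. Of 15 matched catenins and other cytoplasmic partners, 3, 3, 4 and 5 met a LAD in the 4 lists, with 3 in all lists, 2 in some and 10 in none, where 26.2%, 23.3%, 27.5% and 29.5% of all genes met a LAD. These counts were near the background. The 3 were Ctnna2, Ctnna3 and Ctnnd2, alpha- and delta-type catenins of brain, heart or testis. Ctnnd2 was at 30.6% in preadipocytes, 88.6% in adipocytes, 72.8% in the single knockdown and 67.8% in the double knockdown. Pkp2 (plakophilin 2, of desmosomes) was at 0%, 0%, 48.5% and 22.5%, and Pkp4 at 0% in 3 lists and 8.31% in the double knockdown. Beta-catenin (Ctnnb1) and p120 catenin (Ctnnd1), which most cells use, met no LAD in any list.

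Of 26 matched other genes of the cadherin superfamily, 12, 11, 11 and 14 met a LAD, with 11 in all lists, 3 in some and 12 in none. Of all genes 19.3% met a LAD in all lists, 16.9% in some and 63.7% in none. The 11 were Fat3, Clstn2 and the 9 desmosomal cadherins Dsg1a, Dsg1b, Dsg1c, Dsg2, Dsg3, Dsg4, Dsc1, Dsc2 and Dsc3, which lie in 1 gene cluster. The 3 with a mixed state were Cdhr1 (36.9%, 0%, 0% and 65.7%), Cdhr2 (5.33% in the double knockdown and 0% elsewhere) and Fat4 (16.8% in the double knockdown and 0% elsewhere).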

How the data were processed

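LaminB1-DamID was run in 3T3-L1 cells under 4 conditions, with 8 libraries in all (1 LaminB1-Dam and 1 free Dam per condition). The authors mapped reads to mm9 (BWA and limma are named in the submitters' processing notes), computed a log ratio of fusion over free Dam per DpnI fragment and segmented it into LADs with DNAcopy. The deposited lists hold start and end positions with no score, and their depth is unknown. The condition of a list was read from its abbreviation. Of the 2 deposited differential lists, the rule of selection is not stated in full.

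Gene records came from GENCODE vM1 on 21 chromosomes and sequences from NCBIM37. Overlaps were computed by bp with Python 3.11.15, numpy 2.4.6 and pandas 2.3.3, after a check on simulated lists, and plots were drawn with matplotlib 3.10.9. List starts were read as counting from 0. Every unclustered member was named. Values in all lists were given for members whose body or start state differed between lists, whose share of the body differed by at least 25 percentage points, and for type I cadherins, Cdh5, Cdh11 and Cdh13. Of the partner genes, Afdn (listed also under its older symbol Mllt4) and Dchs2 were not matched. Members, lists and settings were chosen with earlier results of these data known. Alternatives were another overlap minimum, LADs of at least 100 kb, gaps under 50 kb closed, other readings of the start and body, and positions counted from 1. Leaving out 1 knockdown list, and Cdh18 and Pcdh9 from summed shares, was added after values were seen. The sequences before the other 2 starts that changed state are not reported here.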

Additional observations from a re-analysis of the deposited data

How the results depend on the processing

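No value has a replicate error, so a change is only a change between these lists. No paired analysis was possible because each condition has 1 pair of libraries and no replicate. Counts of unclustered members in LADs stayed within 1.5 times their value under each alternative, and reading positions from 1 moved none of the counts beyond that. Closing gaps under 50 kb raised the clustered records in preadipocytes to 23 for the body (from 15) and to 23 for the start (from 13). Without the double knockdown list, 6 clustered records met a LAD in some lists (from 12) and 6 in none (from 1). The median share of the body of unclustered members fell to 0 with LADs of at least 100 kb in preadipocytes and in both knockdowns (0 each). It was 13.6 with gaps closed and 13.6 with the longest transcript in preadipocytes, and 37 and 32.9 under the same settings in the double knockdown. By gene start, 0 unclustered members lay in a region that left LADs and 3 in one that joined them, and 4 met one that left when all pieces of the subtraction were used. Of 16 differences of at least 25 points, 14 kept their direction and stayed at 25 points or more with LADs of at least 100 kb and 15 with gaps closed, though their size could change. The other 2 (Cdh2 and Cdh5 in the double knockdown) and the other 1 (Pcdh20 in the double knockdown) went to 0, and none of the 16 turned round. The members higher in the double knockdown than in adipocytes thus fell from 3 to 1 with LADs of at least 100 kb. Those higher in adipocytes rose from 4 to 5 against the single knockdown (with Cdh4). Against the double knockdown they rose from 5 to 6 (with Pcdh8). With any transcript start, 16, 18, 18 and 18 unclustered members started in a LAD (from 15, 18, 15 and 13), so adipocytes no longer stood above the knockdowns. The cause of these shifts was not tested.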
